A study of Macaca fascicularis with 20 samples.

Results

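Double-positive natural killer (NK) cells, which carry both CD27 and CD11b on their surface, were compared with double-low NK cells, which carry little of either. The arrays were chosen by their titles. There were 5 arrays of the double-positive subset and 4 of the double-low subset, 9 of the 20 arrays of the series. The other arrays held CD27 single positives (4), CD11b single positives (5) and B cells (2). Cells of every group were spleen cells of the cynomolgus macaque, Macaca fascicularis. They were thawed from frozen stocks, received no stimulation and were sorted by flow cytometry. All NK subsets were live and positive for CD45, lacked CD3, CD14, CD20 and HLA-DR, and were positive for NKG2A, an inhibitory NK receptor, and CD8a. Per the labels, replicate 1 of both groups came from a male of 4 years from Cambodia and replicate 2 from a male from Vietnam whose age is labelled unknown. Replicate 3 came from a male from Vietnam, aged 12 years on the double-positive array and 9 years on the double-low array. Double-positive replicate 4 came from a male of 5 years from Singapore. Double-positive replicate 5 and double-low replicate 4 both came from a female of 18 years from Singapore. In both single-positive subsets, replicates 1 and 2 had the same labels as above. Replicate 3 came from a male from Vietnam, aged 10 years on the CD27 array and 11 years on the CD11b array. CD27 replicate 4 and CD11b replicate 5 came from a female of 18 years from Singapore. CD11b replicate 4 came from a male of 5 years from Singapore. The labels name no animals, so whether arrays of like labels share an animal is not known, although they are called biological replicates.

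NK cells are lymphocytes that kill infected or transformed cells by releasing perforin, which opens the target's membrane, and granzymes, the proteases that enter through it. In mice, CD27, a co-stimulatory receptor, and CD11b, the alpha chain of a leukocyte integrin, are used to order NK cells from early forms low for both to mature forms. Cytotoxic granule genes, the transcription factors RUNX3, TBX21 and EOMES and the adaptor chains of activating receptors are among the genes best known to mark NK maturation and function.

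The signal differed widely between arrays. Its 75th percentile lay between 923.0 and 1897 units of intensity on 4 double-positive arrays and at 180.0 units on replicate 4. It lay between 818.0 and 1396 units on 3 double-low arrays and at 199.6 units on replicate 4. Replicate 4 of each group was thus the dimmest array of its group, and every result was computed with and without these 2 arrays. On double-positive replicate 4, 67.9% of probes were well above background and 11.4% of expressed probes read the lowest signal of the array, against 85.7% or more and 3.48% or less on the other double-positive arrays. On double-low replicate 4 these shares were 81.0% and 4.31%. The arrays stood on 3 slides. The first held replicates 1 and 2 of both groups, the second held replicate 3 of both and double-low replicate 4, and the third held double-positive replicates 4 and 5 but no double-low array. A value within the second slide therefore rests on 1 double-positive array against 2 double-low arrays.

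Levels below are the log2 of the processed signal minus the 75th percentile of the array, so that a level of 0 is as bright as that percentile. A difference is the mean level of double positives minus that of double-low cells on the log2 scale, with its standard error (SE) from limma. A level compares arrays for 1 probe and does not compare genes. No probe passed an adjusted p of 0.05 among 56918 expressed probes, a share of 0%. The lowest adjusted p was 0.165 (limma, Benjamini-Hochberg adjustment over all expressed probes). Before adjustment, 12459 probes had p under 0.05, of which 2639 were higher and 9820 lower in double positives. Without replicate 4 of each side, again 0% of the 56918 probes passed, the lowest adjusted p was 0.242, and 11405 probes had an unadjusted p under 0.05. So no single difference below met the threshold of the fit, and each is given as a value.

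Weighting the arrays by their estimated quality changed this count more than any other alternative. With array weights, 14900 probes passed, 1803 higher and 13097 lower. The lowest weights of the 9 arrays went to double-positive replicate 4 (0.271), double-positive replicate 3 (0.359) and double-low replicate 4 (0.581), and the highest to double-low replicate 2 (3.20). With p-values still adjusted over all probes, this fit called 3.74% of 12192 genes, at 1 probe a gene, as higher and 22.4% as lower.

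Most genes read lower on the double-positive arrays. The median difference over 12192 genes was -0.47, and 33.6% of the genes had a positive difference. This shift followed the level. With the genes cut into 5 equal groups by mean level, the median difference was -0.99 in the dimmest group, -0.42 in the middle group and -0.08 in the brightest. With replicate 4 of each side left out, these medians were -1.09, -0.40 and 0.01. Within the first slide the median over all genes was -0.68 and within the second slide -0.08. Quantile normalization brought it to -0.13, with medians from -0.15 to -0.10 in the 5 groups. Beside the shift, the distance from the 10th to the 90th percentile of level was 6.29 to 7.87 on the double-positive arrays and 5.40 to 6.51 on the double-low arrays. All double-positive arrays were wider than double-low replicates 1 to 3, and double-low replicate 4 overlapped them. The part of signal spread in the differences was not tested. Of the probes with an unadjusted p under 0.05, 21.2% were higher in double positives after scaling to the 75th percentile, 42.8% after quantile normalization, 49.7% after scaling to the array median and 31.6% after normexp background correction. Directions of single genes and lists are therefore read against the median of -0.47. By the medians of the 5 groups, this reference is too low for bright genes and too high for dim ones.

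**Figure D1:**
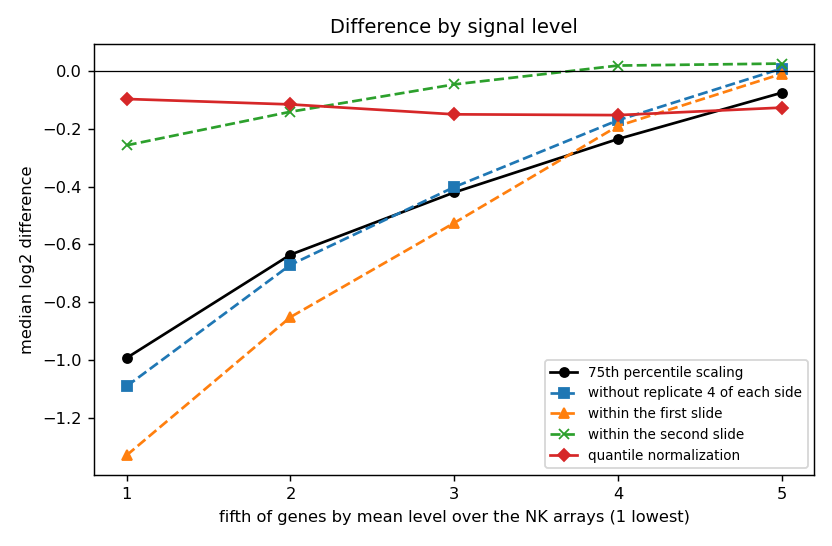
Median log2 difference, double positives minus double-low cells, on the vertical axis in 5 equal groups of genes ordered by mean level over the NK arrays on the horizontal axis, under 5 settings. With scaling to the 75th percentile the line climbs from -0.99 in the dimmest group to -0.08 in the brightest, and with quantile normalization it stays between -0.15 and -0.10.

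The sort markers were checked first. CD27 had 1 matched probe, and ITGAM, which encodes CD11b, had none. The CD27 level was 4.25, 3.88, 3.71, 3.75 and 3.66 on double-positive replicates 1 to 5 and 2.73, 2.31, 3.15 and 4.88 on double-low replicates 1 to 4. Double-low replicate 4 was the brightest of the 9 arrays for CD27, and the other 3 double-low arrays lay below every double-positive array. The difference was 0.58 ± 0.43 (SE; 5 against 4 arrays, adjusted p = 0.388, limma), and without replicate 4 of each side 1.14 ± 0.37 (adjusted p = 0.242, limma). Within the second slide, where double-low replicate 4 stands, it was -0.31. At the RNA level, then, the double-low arrays other than replicate 4 had less CD27 than the double positives, and replicate 4 did not. PTPRC, which encodes CD45, was at 4.57 ± 0.53 (SD, n = 5) in double positives and 3.87 ± 0.93 (SD, n = 4) in double-low cells. Of the genes the gate was set against, CD3D, a chain of the T cell receptor complex, was measured at 0.19 ± 1.06 (SD, n = 5) and 0.78 ± 1.16 (SD, n = 4), and it was well above background on all 9 arrays. In sorted bulk samples like these, fewer cells of a type and less RNA per cell cannot be told apart. The genes of NKG2A, CD8a and NKp80 and of CD14 and CD20 had no matched probe in the fit.

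PRF1 encodes perforin. Its level was 3.34, 2.97, 2.75, 3.86 and 3.89 on double-positive replicates 1 to 5. On double-low replicates 1 to 4 it was 1.26, 0.44, 1.29 and 0.90. The groups did not overlap, and the lowest double-positive array lay above the highest double-low array by more than the range within the double-low group. The difference was 2.39 ± 0.44 (SE), 5.23-fold, with an adjusted p of 0.165 (limma). Without replicate 4 of each side it was 2.24 ± 0.50 (adjusted p = 0.242, limma), so the 2 dim arrays changed it little. It was 2.31 within the first slide and 1.65 within the second, and a second PRF1 probe gave 2.28. CD11b single positives were at 3.54 ± 0.78 (SD, n = 5), close to the double positives, and CD27 single positives at 2.03 ± 0.78 (SD, n = 4), between the 2 groups. Under normexp correction with 1 probe a gene, PRF1 passed with an adjusted p of 0.0457 (limma).

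POLR2M encodes Gdown1, a protein that binds RNA polymerase II and regulates its initiation and elongation. Its level was 2.78, 1.69, 1.11, 1.98 and 1.35 on double-positive replicates 1 to 5 and -2.01, -0.60, -0.20 and -2.86 on double-low replicates 1 to 4. All double-positive arrays were above all double-low arrays, and the double-low arrays were the more scattered. The difference was 3.20 ± 0.51 (SE), 9.21-fold, the lowest unadjusted p among genes (5.48e-06, limma) with an adjusted p of 0.165. Without replicate 4 of each side it was 2.67 ± 0.52 (adjusted p = 0.242, limma). It was 3.55 within the first slide and 2.64 within the second. POLR2M passed under quantile normalization over all expressed probes (3.26, adjusted p = 0.0488, limma). Over 1 probe a gene no gene passed in that setting (lowest adjusted p 0.0709, limma). Over 1 probe a gene POLR2M passed with the array median as scale (adjusted p = 0.0154, limma), an alternative chosen after seeing the data. It also passed there with normexp correction (0.0442) and among genes well above background on all NK arrays (0.0312). Over all expressed probes no probe passed in these settings. CD27 single positives were as high as double positives, at 1.65 ± 0.28 (SD, n = 4), and CD11b single positives lay at 0.41 ± 0.67 (SD, n = 5). The gene had a single probe, and its locus also gives read-through transcripts with its neighbour MYZAP, which 1 probe need not separate.

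RUNX3 encodes a transcription factor of cytotoxic lymphocytes. Its level was 3.36, 2.10, 0.89, 2.01 and 3.36 on double-positive replicates 1 to 5 and 0.38, 0.02, 0.63 and 1.30 on double-low replicates 1 to 4. The groups overlapped, because double-positive replicate 3 read below double-low replicate 4. The difference was 1.76 ± 0.47 (SE), 3.39-fold, with an adjusted p of 0.165 (limma), and 2.08 ± 0.52 without replicate 4 of each side (adjusted p = 0.242, limma). It was 2.53 within the first slide but -0.08 within the second, so this difference did not appear on both slides. The single positives lay between the groups, at 2.15 ± 0.41 (SD, n = 5) for CD11b and 1.73 ± 0.52 (SD, n = 4) for CD27.

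**Figure D2:**
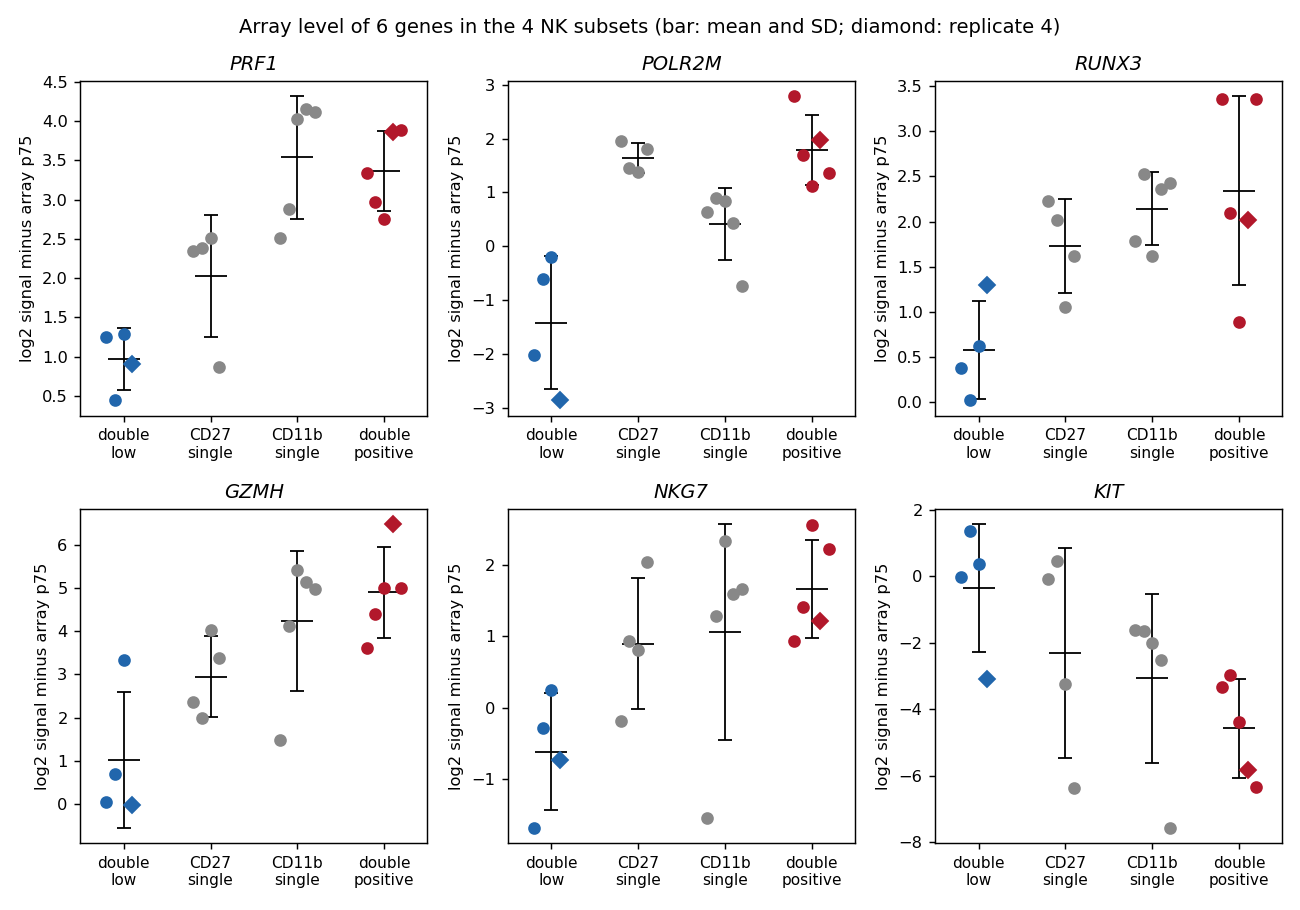
Level on each of the 18 NK arrays (log2 signal minus the 75th percentile of the array, vertical axis) for PRF1, POLR2M, RUNX3, GZMH, NKG7 and KIT in double-low cells (blue), both single-positive subsets (grey) and double positives (red). Black bars give mean and SD, and diamonds mark the dim replicate 4 of the 2 groups compared. PRF1, POLR2M, GZMH and NKG7 do not overlap between the blue and red points, while RUNX3 and KIT do.

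Over the 18 NK arrays, the levels that ran most like PRF1 were those of CTDSP1 (r = 0.88), STK38 (r = 0.84) and S100A4 (r = 0.83). Those most like POLR2M were PIP4K2C (r = 0.88) and SPAST (r = 0.87), and those most like RUNX3 were TSPAN14 (r = 0.86), DGKZ (r = 0.84) and OAZ1 (r = 0.82). These are Pearson correlations over arrays that share slides and signal scale, given as a description.

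The 10 genes of lowest p among those higher in double positives were POLR2M, PRF1, RAP2B, PLEKHG3, PBXIP1, PAFAH1B1, TMED5, GZMH, KLF3 and EIF3H. Their differences ran from 1.86 to 4.08, each with an adjusted p of 0.165 (limma). All 10 had every double-positive array above every double-low array, as had 1.36% of all genes. Since they were taken for their p, that count is a description. Without replicate 4 of each side the differences ran from 1.60 to 3.48, and within the second slide from 1.31 to 3.77. As the groups did not overlap, no choice of arrays could turn a sign, so only the sizes are informative. Paired by like labels (replicates 1, 2 and 3 of both groups, and double-positive 5 with double-low 4), all 10 were higher in 4 of 4 pairs. This too was fixed by the lack of overlap. All 10 passed with array weights, a fit that called 3.74% of all genes as higher. As the 10 were taken for their p on the same arrays, that count too is a description.

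GZMH encodes granzyme H, a protease of cytotoxic granules. Its level was 3.60, 4.40, 5.01, 6.49 and 5.00 on double-positive replicates 1 to 5 and 0.04, 0.70, 3.33 and -0.02 on double-low replicates 1 to 4. One double-low array, replicate 3, approached the double-positive range, and the other 3 lay far below. The difference was 3.89 ± 0.81 (SE), 14.8-fold, and 3.15 ± 0.87 without replicate 4 of each side. GZMB, a close relative in sequence named here after its values were seen, differed by 0.72 ± 0.42 (SE) and overlapped between groups. A probe of either gene may also bind the other's transcript.

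KLF3 encodes a transcriptional repressor of the Krüppel-like family. Its level was 0.52, -1.01, -3.73, 0.45 and -0.18 on double-positive replicates 1 to 5 and -4.10, -4.09, -5.04 and -6.26 on double-low replicates 1 to 4. Double-positive replicate 3 stood apart from the rest of its group, near the double-low arrays, and double-low replicate 4 read the lowest signal of its array. The difference was 4.08 ± 0.86 (SE), and 3.31 ± 0.94 without replicate 4 of each side. When double-positive replicate 3 was left out, KLF3 passed in the fit with 1 probe a gene (4.82, adjusted p = 0.0373, limma), as did POLR2M.

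PAFAH1B1, which encodes LIS1, a regulator of the motor dynein, was at 2.56, 1.40, 1.54, 0.92 and 3.01 on double-positive replicates 1 to 5 and at -0.38, -1.54, -2.15 and -2.32 on double-low replicates 1 to 4. The groups were apart, with a difference of 3.48 ± 0.71 (SE) and the same 3.48 without replicate 4 of each side. RAP2B, a small GTPase of the Ras family, was at 2.95, 2.86, 2.52, 3.40 and 3.05 on double-positive replicates and at 0.56, 0.13, 0.16 and 1.66 on double-low replicates. Its double-positive arrays lay within a narrow range, and the difference was 2.33 ± 0.43 (SE), or 2.56 ± 0.45 without replicate 4 of each side. PLEKHG3, a guanine nucleotide exchange factor of actin remodelling, differed by 2.93 ± 0.58 (SE) and within the second slide by 1.31. TMED5, a cargo receptor of the early secretory pathway, differed by 2.40 ± 0.50, PBXIP1, a PBX-interacting protein, by 2.20 ± 0.45 and EIF3H, a subunit of translation initiation factor eIF3, by 1.86 ± 0.40. Without replicate 4 of each side these 3 were 2.21 ± 0.58, 2.19 ± 0.51 and 1.60 ± 0.45, each within 1 SE of the value over all arrays.

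The 10 genes of lowest p among those lower in double positives were FRAS1, ANGEL1, ANGPT1, XKR7, KRT25, PHACTR3, GPR173, LVRN, SLC36A3 and LIPI. Their differences ran from -1.93 to -3.39, each with an adjusted p of 0.165 (limma), and all 10 had every double-positive array below every double-low array, as had 5.62% of all genes. Most were dim. For 8 of the 10, double-positive replicate 4 read the lowest signal of its array, and only ANGEL1 and GPR173 were well above background on all 9 arrays. FRAS1, KRT25 and LIPI were not well above background on any double-positive array, so only a bound is given. Against the lowest signal well above background, double-low cells were at least 2.53-fold higher for FRAS1, at least 3.3-fold for KRT25 and at least 3.22-fold for LIPI.

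FRAS1, which encodes an extracellular matrix protein, was at -7.53, -7.31, -6.83, -5.84 and -6.39 on double-positive replicates 1 to 5 and at -3.17, -4.42, -4.37 and -3.34 on double-low replicates 1 to 4. ANGPT1, the ligand of the endothelial receptor TIE2, was at -5.14, -7.96, -4.92, -5.84 and -7.92 and at -2.14, -4.63, -2.04 and -3.04. FRAS1 on double-positive replicates 1 and 4, and ANGPT1 on replicates 4 and 5, read the lowest signal of their arrays, and such readings have no order. ANGEL1, a relative of the CCR4 nucleases, was at -1.41, -0.11, -1.02, -1.14 and -1.91 on double-positive replicates and 1.22, 0.95, 0.64 and 0.44 on double-low replicates. Its difference was -1.93 ± 0.39 (SE), and -2.05 ± 0.45 without replicate 4 of each side. Its 4 probes disagreed in size, from -1.93 to -0.17. GPR173, an orphan receptor, differed by -2.11 ± 0.47 by its main probe and by -0.34 by the other, and within the second slide by -0.47. LVRN, a membrane peptidase, differed by -2.81 ± 0.63, but within the second slide by -0.59. Except for FRAS1 (-2.98), the values of these 10 within the second slide were smaller in size than those over all arrays, and the median of all genes was nearer 0 there too.

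**Figure D3:**
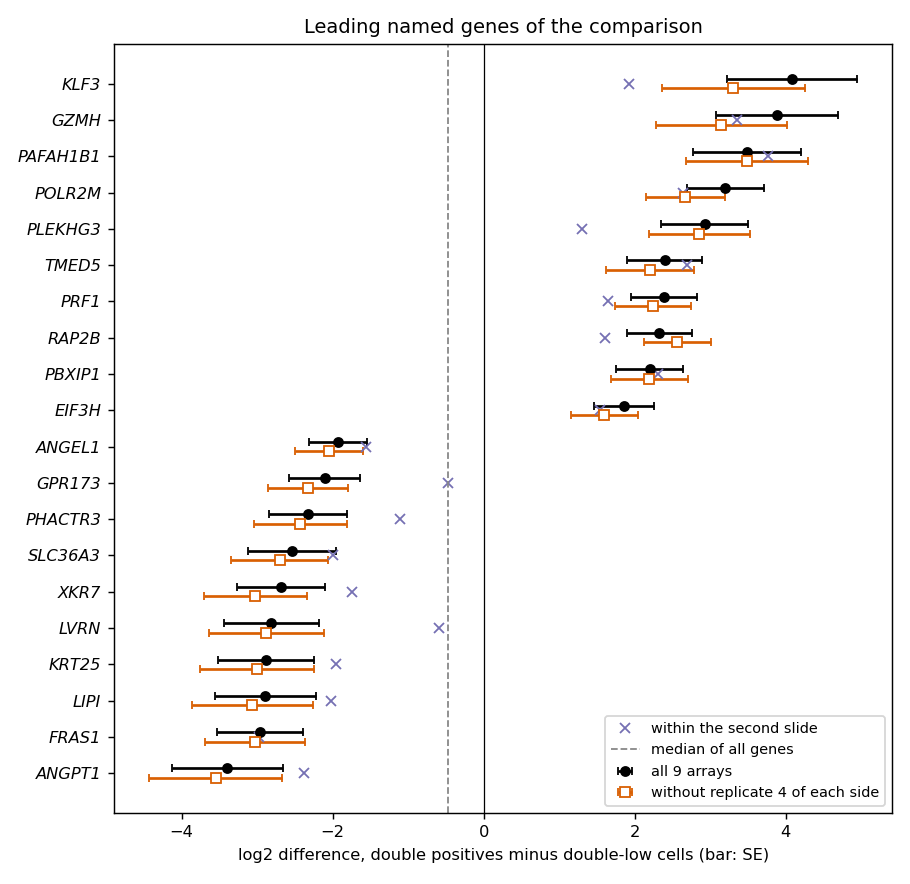
Log2 difference with SE (horizontal axis) of the 10 genes of lowest p in each direction (vertical axis) over all 9 arrays (black circles), without replicate 4 of each side (orange squares) and within the second slide (crosses). The dashed line is the median of all genes, -0.47. The circles run from -3.39 to 4.08. As the groups of these genes do not overlap, no sign could change in the other settings drawn.

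Leaving out replicate 4 of each side brought 3 further names among the 5 genes of lowest p in each direction. SNX3, a sorting nexin of endosomes, differed by 3.40 ± 0.66 (SE), against 2.51 ± 0.70 over all arrays, because its double-low replicate 4 (-0.92) lay within the double-positive range of -1.21 to -0.35. LOC102125977, an uncharacterised locus, differed by -2.89 ± 0.55, against -2.22 ± 0.56. PDGFRB, a receptor of platelet-derived growth factors best known from stromal and mural cells, was at 2.03, -0.13, 1.73, -2.53 and 2.53 on double-positive replicates 1 to 5 and at -2.89, -4.61, -5.51 and -5.60 on double-low replicates 1 to 4. The groups were apart, and replicate 4 of the double positives was the closest to the double-low arrays. The difference was 5.38 ± 1.22 (SE) and 5.87 ± 1.26 without replicate 4 of each side. PDGFRB was well above background on only 2 of 4 double-low arrays, so the size of the difference is uncertain. The adjusted p of these 3 genes was 0.242 (limma) in that fit.

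Gene lists were read by counts and medians. A gene is counted here at an unadjusted p under 0.05, which 5.24% of all genes reached as higher and 15.9% as lower in double positives. With replicate 4 of each side left out, these shares were 4.52% and 14.8%. Over all arrays the shares followed the level. In the dimmest of the 5 groups 0.90% of genes were higher and 25.3% lower, against 11.7% and 8.69% in the brightest. NK identity and cytotoxic granule genes were bright (median level over the NK arrays 2.70 and 2.35). Stromal and neutrophil genes were dim (-2.03 and -2.26), so the shares over all genes are no close baseline for these lists. No member of any list passed the adjusted threshold. Counts without the dim arrays leave out replicate 4 of each side, and genes named only from those counts were chosen after their values were seen.

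Of the NK identity genes, 15 of 18 were measured, with a median difference of 0.87, and 14 of the 15 were positive. At an unadjusted p under 0.05, 4 of 15 were higher and 0 lower, and without replicate 4 of each side 5 of 15 were higher. NKG7, a granule membrane protein, was at 0.93, 1.41, 2.56, 1.22 and 2.22 on double-positive replicates 1 to 5 and at -1.69, -0.29, 0.24 and -0.74 on double-low replicates 1 to 4. Its groups were apart, with a difference of 2.28 ± 0.66 (SE, adjusted p = 0.170, limma). FCER1G, an adaptor chain of activating receptors, was at 4.46, 4.18, 4.12, 5.03 and 4.40 and at 2.71, 2.75, 3.60 and 1.13. It was also apart, differing by 1.89 ± 0.55, but by 1.27 ± 0.56 without replicate 4 of each side, since its lowest double-low reading was replicate 4. CD7, a surface glycoprotein of T and NK cells, differed by 1.73 ± 0.73 and without replicate 4 by 0.95 ± 0.74, and HOPX, a transcriptional cofactor, by 0.99 ± 0.44. TBX21 (0.87 ± 0.55) and EOMES (1.26 ± 0.69), also of this list, were not counted with or without replicate 4 of each side. EOMES was 2.40 within the first slide but -2.11 within the second. The double-low arrays were thus not without NK transcripts, and the mean level over this list was 0.43 to 2.17 on them, against 1.80 to 2.79 on the double-positive arrays.

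Of the cytotoxic granule genes, 14 of 18 were measured, and 12 had a positive difference, with a median of 0.76. PRF1, GZMH and NKG7 had an unadjusted p under 0.05 as higher, and STXBP2, a fusion protein that granule release needs, as lower (-1.36 ± 0.52, SE). Without the dim arrays 5 were higher, with GZMA, the granule protease granzyme A (2.77 ± 0.90, against 0.79 over all arrays), and GNLY, or granulysin, added, and STXBP2 was again the 1 lower. The median was 1.07 without replicate 4 of each side, 1.73 within the first slide and 0.23 within the second. The list of mature effector NK genes shares PRF1, GZMH and GZMB with the granule list and TBX21 with the NK identity list. NKG7 and GNLY stand in both the granule and NK identity lists. Of 14 measured, 5 were higher and 1 lower at an unadjusted p under 0.05, with a median of 0.80. With the dim arrays left out, 5 were higher and 0 lower. PLEK, or pleckstrin, differed by 1.87 ± 0.62, but by 1.22 ± 0.58 without the dim arrays, as double-low replicate 4 read -2.77 against -0.93 to 1.18 on the others. B3GAT1, the enzyme that makes the CD57 epitope, differed by -1.05 ± 0.38, with its double-positive arrays all below the double-low arrays.

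Genes of immature or CD56bright-like NK cells were mixed. Of 11 measured, 1 was higher and 2 were lower at an unadjusted p under 0.05, with a median of 0.16, and without the dim arrays 0 were higher and 1, KIT, was lower. KIT, the receptor of stem cell factor, was at -3.32, -2.97, -4.38, -5.84 and -6.34 on double-positive replicates 1 to 5 and at -0.02, 1.36, 0.39 and -3.10 on double-low replicates 1 to 4. Only double-low replicate 4 reached into the double-positive range. The difference was -4.23 ± 1.39 (SE, adjusted p = 0.173, limma) and -4.83 ± 1.52 without replicate 4 of each side, and 4 KIT probes gave -4.47 to -3.81. KIT was well above background on only 3 of 5 double-positive arrays, and its reading on replicate 4 is the lowest signal of that array, so the size of the difference is uncertain. CD44, a receptor of hyaluronan, differed by 1.21 ± 0.46 and without replicate 4 by 0.66 ± 0.47.

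Receptor lists had few members past the unadjusted threshold. Of 15 activating receptors and adaptors, 2 were higher and 0 lower: FCER1G, and SYK, a kinase downstream of it. SYK differed by 2.68 ± 0.92 (SE), but by 1.28 ± 0.76 without replicate 4 of each side, because its level on double-low replicate 4 was -4.52 against -0.64 to 1.27 on the others. Without the dim arrays 1 was higher, FCER1G, and 1 lower. The lower one was CD226, an activating adhesion receptor, at -1.23 ± 0.38, against -0.61 ± 0.45 over all arrays. Of 7 inhibitory receptors and phosphatases, 1 was higher. This was PTPN6, the phosphatase SHP-1, at 2.20 ± 0.73 (unadjusted p = 0.00726, limma; 0.101 without replicate 4 of each side), and the list's median turned from 0.78 to -0.26 when these arrays were left out. Of 15 chemokine, egress and adhesion receptors, 3 were higher and 1 lower, and without the dim arrays 3 were higher and 0 lower. SELPLG, the ligand of P-selectin, differed by 1.83 ± 0.53. Of 10 cytokine receptors, 0 were counted in either direction over all arrays, and without the dim arrays 1 was higher. This was TNFRSF1B, a receptor of tumour necrosis factor, at 1.89 ± 0.58, against 0.76 ± 0.71 over all arrays. TGFBR2, a receptor of transforming growth factor beta, had the lowest p over all arrays, at 1.60 ± 0.77 (unadjusted p = 0.0508, limma; 0.173 without the dim arrays). Of 8 chemokines and cytokines, 1 was lower: CSF2, which encodes GM-CSF, at -1.56 ± 0.56, and at -1.68 ± 0.66 without the dim arrays.

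Of the NK transcription factors, 25 of 37 were measured, with a median of 0.51, and 17 were positive. Higher at an unadjusted p under 0.05 were 3, and 0 were lower. They were RUNX3, IRF8, a factor of NK and myeloid development (1.71 ± 0.71, SE), and ETS1, which NK development needs (0.83 ± 0.38). IRF8 had its groups apart, but the double-positive arrays fell into a high pair (2.91 and 3.97) and 3 arrays from 0.77 to 0.84. With the dim arrays left out, the 3 higher were RUNX3, ETS1 and PRDM1, which encodes the repressor BLIMP1 (2.03 ± 0.73). The list's median was 1.20 within the first slide and -0.46 within the second. Of 12 tissue residency genes, 0 were higher and 1 lower, and without the dim arrays 1 was higher, PRDM1, and 0 lower. RGS1, a brake on chemokine receptor signalling, differed by -1.36 ± 0.59 over all arrays and by -0.44 ± 0.47 without replicate 4 of each side.

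POLR2M belongs to the machinery of RNA polymerase II, so the list of that machinery, POLR2M included, was described as well. Of 43 listed subunits and general factors, 30 were measured, with a median of 0.33 and 19 positive. At an unadjusted p under 0.05, 7 were higher and 0 lower, and without replicate 4 of each side 3 were higher. POLR2M is 1 of the 7 and 1 of the 3, and as it prompted the list it adds nothing to these counts. GTF2E1, a subunit of the initiation factor TFIIE, was at 0.36, -1.28, -1.76, 0.07 and 0.21 on double-positive replicates 1 to 5 and at -2.97, -1.67, -3.71 and -3.65 on double-low replicates 1 to 4. The groups overlapped by 1 array on each side, and the difference was 2.52 ± 0.66 (SE). CCNT2, a cyclin of the elongation kinase P-TEFb, differed by 2.84 ± 0.79, but its double-low replicate 4 (-3.36) lay far from the other 3 (1.20 to 1.46), and without replicate 4 of each side the difference was 1.47 ± 0.54. GTF2A1, a subunit of TFIIA, differed by 3.13 ± 1.01 and by 1.92 ± 0.98 without these arrays. Of 20 Mediator subunits, which link factors to the polymerase, 1 was higher and 2 were lower, with a median of 0.26. MED24 differed by 2.39 ± 0.66, but by 1.54 ± 0.57 without the dim arrays, as double-low replicate 4 read -1.58 against 0.92 to 2.62 on the others. MED9 differed by -1.13 ± 0.47, but by -0.57 without double-low replicate 4, which read 4.06 against 1.54 to 2.07. MED27 differed by -0.98 ± 0.38, and by -1.37 ± 0.40 without the dim arrays. In that setting MED24 was the 1 higher and MED27 the 1 lower.

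Among general cell functions, the respiratory chain had a median of 0.63 over 26 measured genes, with 5 higher and 1 lower at an unadjusted p under 0.05. When the dim arrays were left out, 4 were higher and 0 lower, and these were other genes (NDUFA4, NDUFA10, SDHD and COX6C). COX7A2, a subunit of cytochrome c oxidase, differed by 1.83 ± 0.59 (SE) and by 1.21 ± 0.62 without the dim arrays, SDHC of succinate dehydrogenase by 2.64 ± 0.89 and ATP5F1A of ATP synthase by 1.33 ± 0.50. UQCRFS1, the Rieske iron-sulphur protein, differed by -1.24 ± 0.50. Within the second slide the median of this list was -0.11. Of 20 ribosomal protein genes, 19 were positive with a median of 0.53, but 0 were counted as higher and 1 as lower (RPL37, -1.76 ± 0.68). Without the dim arrays 1 was higher, RPL12 (0.89 ± 0.38), and 0 lower. Within the second slide the ribosomal median was -0.43, so the direction was not the same on both slides. RPL12 (0.82 ± 0.39) and RPS6 (0.80 ± 0.40) were the next by p. Ribosomal protein genes have many near-identical pseudogenes that probes may also read. Of 16 proteasome genes 1 was higher, PSMD4, a ubiquitin receptor of the proteasome (2.35 ± 0.88, and 1.55 without double-low replicate 4). Without the dim arrays the 1 higher was PSMB6 (1.71 ± 0.77).

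Of 19 apoptosis regulators, 4 were higher at an unadjusted p under 0.05 and 0 lower, with a median of 0.35. When the dim arrays were left out, 3 were higher and 1 lower. Among the higher were BBC3 and BCL2L11, the death-promoting protein BIM (2.93 ± 0.69, against 1.27 over all arrays), and the lower was BAX, a pore former of mitochondria (-0.96 ± 0.42). BBC3, which encodes the death-promoting protein PUMA, was at 3.11, 2.46, 2.51, -1.46 and 2.38 on double-positive replicates 1 to 5 and at -0.67, -1.83, -3.87 and -3.98 on double-low replicates 1 to 4. Double-positive replicate 4 was the exception, within the double-low range. The difference was 4.39 ± 1.22 (SE, adjusted p = 0.165, limma) and 4.74 ± 1.25 without replicate 4 of each side. PMAIP1, which encodes the related protein NOXA, differed by 2.46 ± 0.99 over all arrays, but double-low replicate 4 (-4.44) stood far below the other 3 (1.90 to 2.78), and without replicate 4 of each side the difference was 0.90 ± 0.44. APAF1, the core of the apoptosome, differed by 1.35 ± 0.58 and without these arrays by 0.77 ± 0.62. Of 23 immediate early genes, which many cells switch on within minutes of handling, 2 were higher and 0 lower, with a median of 0.57. KLF6 (1.69 ± 0.64) and PPP1R15A (2.64 ± 1.02) were these 2, and without replicate 4 of each side they differed by 0.77 ± 0.48 and 1.14 ± 0.58, with 0 of the 23 counted. Their lowest reading was double-low replicate 4 in both cases.

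The remaining functional lists had at most 1 member at an unadjusted p under 0.05 over all arrays. Of 15 cell cycle genes 0 were counted in either direction, with a median of 0.01. E2F1, a factor of entry into DNA replication, had the lowest p of them, at -0.69 ± 0.36 (SE). In the setting without the dim arrays, E2F1 was counted as lower (-0.95 ± 0.37) and TYMS, or thymidylate synthase, as higher (2.13 ± 0.91). Of 15 interferon response genes 1 was lower, XAF1 at -0.95 ± 0.42, with a list median of -0.25, and 0 were counted without the dim arrays. Of 10 glycolytic genes 1 was lower, ALDOC at -1.20 ± 0.48, with a median of 0.03. The glycolytic median without the dim arrays was 0.75, with 8 of 10 positive and 0 counted in either direction. Of 11 heat shock genes 0 were counted, with a median of 0.15, and HSPH1, a chaperone, differed by 1.35 ± 0.79, and by 0.77 ± 0.86 without the dim arrays, where again 0 were counted.

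Markers of other cells of the spleen were read alike. For T cells 9 genes were measured with a median of -0.44, for B cells 10 with -0.60, for plasma cells 7 with -0.60 and for monocytes and macrophages 14 with -0.51. These medians lie near the -0.47 of all genes. For neutrophils 9 genes had a median of -0.97, for erythroid cells 5 had -0.91, for platelets 6 had -0.87 and for splenic stroma and endothelium 11 had -1.44. For dendritic cells 0 of 8 genes were positive. These lists are of dim genes, and with quantile normalization their medians were -0.69, -0.48, -0.56 and -0.78, and -0.40 for dendritic cells. At an unadjusted p under 0.05, 6 of 11 stromal and endothelial genes were lower, among them CDH5, the cadherin of endothelium (-1.40 ± 0.47, SE), and DCN, a matrix proteoglycan, which was not well above background on any double-positive array (at least 1.35-fold higher in double-low cells). PDGFRB, described above, was the only positive member of that list. Within the second slide its median was -0.21. The mean level over the list was -3.83 to -2.35 on double-positive arrays and -3.04 to -1.62 on double-low arrays, and 5 of its 11 genes were well above background on all 9 arrays.

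Of 9 neutrophil genes 3 were lower, with CAMP, an antimicrobial peptide, at -1.12 ± 0.39 (SE) and LCN2, a siderophore-binding protein, at -1.36 ± 0.53. The mean level over this list was -4.05 to -1.99 on double-positive arrays and -2.14 to -1.88 on double-low arrays. Of 14 monocyte and macrophage genes 1 was higher, AIF1 at 2.68 ± 0.94, and 1 lower, CSF1R, the receptor of macrophage colony-stimulating factor, at -1.63 ± 0.53. Of 9 T cell genes 1 was lower, CD40LG at -1.04 ± 0.47, and CD3D differed by -0.59 ± 0.77. For B cells, dendritic cells, platelets, erythroid cells and plasma cells 0 genes were counted in either direction over all arrays. Without the dim arrays 2 of 8 dendritic cell genes (TCF4, -1.31 ± 0.52, and CD1C, -1.35 ± 0.61), 2 of 6 platelet genes (ITGA2B and ITGB3), 1 of 10 B cell genes (CD79B, -1.05 ± 0.45) and 1 of 5 erythroid genes (AHSP, -1.07 ± 0.42) were lower, and 0 plasma cell genes. In that setting 6 of 11 stromal and 3 of 9 neutrophil genes were lower, 0 T cell genes were counted, and CSF1R was the only monocyte and macrophage gene counted. The part of such cells in the differences was not tested.

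Of 9 genes of other innate lymphoid cells, 0 were higher and 3 lower, with a median of -0.55, and without the dim arrays 2 were lower, KIT and IL23R. The 3 were KIT, IL23R, the receptor chain for interleukin 23, and IL1R1, the receptor of interleukin 1. IL23R was not well above background on any double-positive array and was above it on 3 of 4 double-low arrays, which were at least 1.49-fold higher. IL1R1 differed by -1.20 ± 0.51 (SE) but by 0.02 within the second slide. PTGDR2, a marker of group 2 innate lymphoid cells, differed by -0.31, close to the median of all genes. The mean level over the list was -3.47 to -2.31 on double-positive arrays and -2.39 to -1.29 on double-low arrays.

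**Figure D4:**
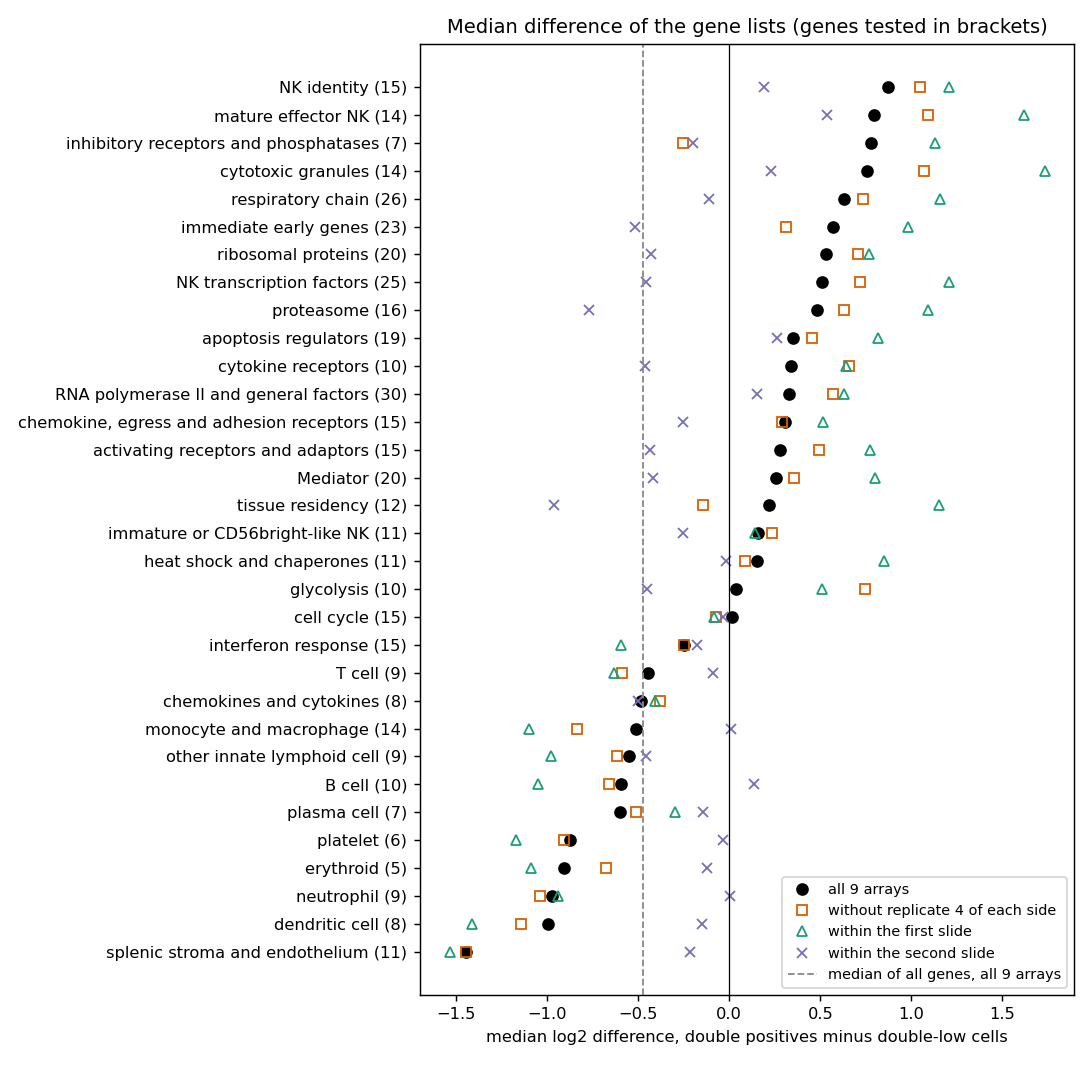
Median log2 difference (horizontal axis) of each gene list with at least 5 measured genes (vertical axis, number of genes in brackets) over all 9 arrays (circles), without replicate 4 of each side (squares), within the first slide (triangles) and within the second slide (crosses). The NK identity, mature effector and cytotoxic granule lists (0.87, 0.80 and 0.76), which share members, stay above 0 in all 4 settings. So do the lists of RNA polymerase II factors, POLR2M among them (0.33), and of apoptosis regulators (0.35). The stromal list lies lowest (-1.44).

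The other 2 NK subsets place these genes. For 9 of the 10 leading higher genes the mean of CD11b single positives was nearer to the double positives than to the double-low cells, and for 5 of the 10 that of CD27 single positives was. GZMH was at 4.90 ± 1.06 (SD, n = 5) in double positives, 4.23 ± 1.62 (SD, n = 5) in CD11b single positives, 2.95 ± 0.93 (SD, n = 4) in CD27 single positives and 1.01 ± 1.58 (SD, n = 4) in double-low cells. Double positives and CD11b single positives lay within 1 SD of each other. The same order held for NKG7, from 1.67 ± 0.69 (SD, n = 5) in double positives to -0.62 ± 0.82 (SD, n = 4) in double-low cells. KIT followed the reverse, from -4.57 ± 1.49 (SD, n = 5) in double positives through -3.07 in CD11b and -2.30 in CD27 single positives to -0.34 ± 1.93 (SD, n = 4) in double-low cells. PDGFRB split otherwise, with CD11b single positives at 0.27 beside double positives at 0.73 and CD27 single positives at -3.95 beside double-low cells at -4.65. For the 10 leading lower genes, 5 were nearer to double positives in CD11b single positives and 6 in CD27 single positives. No test was made of these orders, since the genes were taken for the difference between the outer groups.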

How the data were processed

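RNA of sorted cells (50 ng) was amplified by an isothermal linear method, and 400 ng of product was labelled with Cy3 and hybridised to 1-colour Agilent arrays, per the labels' protocols. Agilent Feature Extraction 10.7.1.1 and Partek are named in the submitters' processing notes. The deposited scanner files hold processed signal intensity per spot, per the file headers; the authors' deposited log2 values were used as an alternative. Control spots and outlier spots were left out and spots of a probe averaged. Each array's log2 signal was scaled by its 75th percentile. Of 58659 probes, 56918 counted as expressed, meaning that at least 4 of the 18 NK arrays marked them as well above background. All 18 were fitted together in limma 3.58.1 (R 4.3.3, trended and robust empirical Bayes), with Benjamini-Hochberg adjustment. The procedure was run on simulated data made by shuffling each probe's residuals between arrays. Such data hold no slide effect, pairing or shift of a whole array, so the simulation does not bear on these. RefSeq accessions gave 1 gene to 20417 probes (34.8%), and the probe of highest mean level stood for a gene (12192 genes).

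Named were the sort, gate and 3 given markers, the 10 genes of lowest p in each direction (5 without replicate 4), 2 to 4 members of lowest p in each list, and the 3 genes most like PRF1, POLR2M and RUNX3. A few genes that this rule names are not reported here. The members and lists were chosen with earlier results of these data known. No correlation between 2 arrays exceeded 0.961. Normexp correction (offset 50) used the median spot signal, since the files hold no mean. Where arrays share an animal, p-values measure the spread between samples only. The number of arrays limits the precision.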

Additional observations from a re-analysis of the deposited data

Results flagged for a closer look

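Of 162 groups of array values examined, 8 held an array far from the rest of its group by Dixon's criterion. Chance gives about 1 in 20, so this count is near the share that chance gives. On double-low replicate 4, CCNT2 was at -3.36 (others 1.20 to 1.46), PMAIP1 at -4.44 (others 1.90 to 2.78), PPP1R15A at -6.26, the lowest signal of that array (others 0.00 to 1.01), and LOC102125977 at -2.86 (others -1.80 to -1.61). On double-positive replicate 4, CST7, an inhibitor of granule proteases, was at 5.56 (others 3.21 to 3.86) and BBC3 at -1.46 (others 2.38 to 3.11). ATP5F1A was at -0.40 on double-positive replicate 3 (others 1.70 to 2.42), and KLF6 at 2.45 on double-positive replicate 5 (others 3.03 to 3.21). Of the 8, 6 lay on the dim replicate 4 of a group, and the part of its dim signal was not tested.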

How the results depend on the processing

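The count of probes past the threshold, 0 over all arrays, was 8 with quantile normalization, 1 with the authors' deposited log2 values, 1 with the donor label as a block and 14900 with array weights. Over 1 probe a gene it was 0, and became 3 with normexp correction, 1 among genes well above background on all NK arrays, 3793 with array weights and 1 with each array's median as scale, an alternative chosen after seeing the data. Leaving out 1 array at a time gave 0 to 0 probes and 0 to 4 genes. The 4 genes came without double-positive replicate 3 (POLR2M, KLF3, PTTG1IP and LVRN), and 1, POLR2M, without double-low replicate 3. Of 1977 differences of 80 genes under the alternatives, 1902 kept direction and side of the threshold and 61 came to pass it. Most of the 61 came with array weights, as the other alternatives passed few probes or genes. Not every gene named here was among the 80. The remaining 14 differences turned sign. Within the second slide these were CD27 (-0.31), PTPRC (-0.68), RUNX3 (-0.080), HOPX (-0.31), CD44 (-0.16), ETS1 (-0.28), ATP5F1A (-0.81), RPL12 (-0.44), RPS6 (-0.64), IL1R1 (0.022), CSF1R (0.20), CD40LG (0.75) and E2F1 (0.14), and within the first slide RGS1 (0.32). The cause was not tested. Of 825 list medians 44 moved by more than 1 SD. Same-numbered arrays of the 2 groups had correlations of 0.24, 0.33, -0.07 and 0.21, and 3 of 4 double-low arrays correlated best with their own number. Double-positive replicate 5 and double-low replicate 4, which have like labels, had a correlation of -0.08. By like labels, then, the hint of pairing from the data rests on replicates 1 and 2. The third correlation was below 0 and the labels of replicate 4 differ in sex and age, so the comparison was kept without the block. With the replicate block 0 probes passed (lowest adjusted p 0.0531, limma), and 11133 had an unadjusted p under 0.05. Probes near an array's lowest signal have no order, which limits the dim genes.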

Other observations

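ZFAND1, a zinc finger protein, was singled out after its values were seen. Its 2 probes differed by 2.83 ± 0.61 and 3.06 ± 0.55 (SE) between double positives and double-low cells, and with quantile normalization by 3.65 and 3.90, with adjusted p of 0.0488 and 0.0395 (limma). They did not pass the adjusted threshold in the analysis over all arrays with scaling to the 75th percentile. The other probes that passed with quantile normalization were that of POLR2M and 5 with no gene name here.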
